A study of Homo sapiens with 18 samples.

Results

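The proteasome genes of 3 human lymphoma lines were described here before and after a BCL6 inhibitor, with the immunoproteasome set against the rest of the complex. Members were all gene symbols of the deposited tables that start with PSMA, PSMB, PSMC, PSMD, PSME, PSMF or PSMG, 49 of 23250. One of them, PSMC3IP, encodes a cofactor of recombination and no part of the proteasome, and it was kept apart; its change passed the test in none of the lines. The other 48 are proteasome genes. The thymic subunit gene PSMB11 stayed at or under 0.129 CPM (read counts scaled to the same total in each library) in every library, close to the 3-read level of 0.095 to 0.362 CPM, so 47 were tested.

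The proteasome is the protease that degrades ubiquitin-tagged proteins. Its 20S core is a barrel of alpha rings, the gates, and beta rings, which hold the catalytic subunits PSMB5, PSMB6 and PSMB7, and a 19S cap of ATPases (PSMC) and non-ATPases (PSMD) recognises and unfolds substrates. In lymphocytes and in cells exposed to interferon gamma, newly built cores take up PSMB8, PSMB9 and PSMB10 in place of PSMB5, PSMB6 and PSMB7; this immunoproteasome, with the PA28 activator made of PSME1 and PSME2, is known for producing peptides for MHC class I. Assembly factors (PSMG1 to PSMG4 for the core, PSMD5, PSMD9 and PSMD10 for the cap) help to build the particle and are not part of the finished one.

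RNA-seq had been done on SUDHL6, Farage and SUDHL4, established diffuse large B cell lymphoma lines, each grown for 12 h with the vehicle DMSO (3 libraries) or with 10 µM of a small molecule inhibitor of the transcriptional repressor BCL6 (3 libraries), known by the code name 79-6.1085. Whether replicates were separate cultures is not in the labels; a p-value here therefore reflects the spread among these libraries alone, part or all of which may be technical. Values are CPM as deposited, with 6289956 to 25492726 reads in the listed genes per library; replicate 3 of both SUDHL6 groups was the shallowest, at 7359083 reads with DMSO and 6289956 with the inhibitor, and the others held at least 16867228. Changes are log2 differences of CPM + 1, inhibitor minus DMSO, with the standard error (SE) of limma, whose p-values are adjusted over all 12769 genes tested by Benjamini-Hochberg. "Rose" and "fell" refer to an adjusted p under 0.05. B cell markers summed to 2014 to 6613 CPM in every library, and 5 of 6 (all but CD22) were lower with the inhibitor in each of the 3 lines. T cell, NK cell and epithelial markers each summed to at most 1.96 CPM. Myeloid markers summed to at most 3.503 CPM, with CD14 higher in all 3 lines and ITGAM, the other one tested, higher in SUDHL6 (0.63) and lower in Farage (-0.52). The fibroblast marker DCN was at 58.95 to 66.63 CPM with DMSO and 17.36 to 20.32 CPM with the inhibitor in SUDHL4. COL1A1 was at 5.43 to 7.27 and 0.945 to 1.31 CPM in Farage. The part of these markers in the results was not tested, and in bulk RNA fewer cells of a type and less RNA per cell cannot be told apart.

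The 250 bases upstream of the RefSeq start of the 5 immunoproteasome genes are shown because these genes moved together (values follow). They are from RefSeq on GRCh38.p14, 5′ to 3′ on the gene's strand, while the reads were aligned to hg19. Capitals mark matches to 3 short elements searched on both strands: GAAA followed after 2 bases by another GAAA (bound by interferon regulatory factors), TTCNNNGAA (bound by STAT proteins, and the same on both strands) and TGACNNNGC (the core of the antioxidant response element). The 3 do not overlap each other in these windows.
PSMB8 (chr6:32844680-32844929, minus strand): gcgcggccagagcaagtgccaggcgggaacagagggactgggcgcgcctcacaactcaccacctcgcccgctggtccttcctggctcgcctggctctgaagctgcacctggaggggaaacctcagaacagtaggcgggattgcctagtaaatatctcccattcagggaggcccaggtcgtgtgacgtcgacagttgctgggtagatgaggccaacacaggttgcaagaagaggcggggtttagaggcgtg
PSMB9 (chr6:32853942-32854191, plus strand): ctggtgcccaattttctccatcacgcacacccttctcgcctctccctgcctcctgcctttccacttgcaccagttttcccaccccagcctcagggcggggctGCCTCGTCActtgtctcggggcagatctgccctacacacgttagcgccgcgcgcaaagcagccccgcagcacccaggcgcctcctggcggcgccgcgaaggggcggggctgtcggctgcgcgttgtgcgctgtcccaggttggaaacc
PSMB10 (chr16:67936851-67937100, minus strand): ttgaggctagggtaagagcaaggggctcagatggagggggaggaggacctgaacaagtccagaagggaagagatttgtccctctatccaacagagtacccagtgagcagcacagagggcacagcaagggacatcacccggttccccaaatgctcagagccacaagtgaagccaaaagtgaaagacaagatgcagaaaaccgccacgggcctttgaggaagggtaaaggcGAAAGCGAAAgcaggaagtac
PSME1 (chr14:24135944-24136193, plus strand): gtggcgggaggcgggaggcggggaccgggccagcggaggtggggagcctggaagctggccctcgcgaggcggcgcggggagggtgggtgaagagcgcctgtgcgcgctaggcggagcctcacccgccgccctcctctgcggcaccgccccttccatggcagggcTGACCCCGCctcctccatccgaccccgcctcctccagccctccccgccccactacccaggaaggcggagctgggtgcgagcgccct
PSME2 (chr14:24146611-24146860, minus strand): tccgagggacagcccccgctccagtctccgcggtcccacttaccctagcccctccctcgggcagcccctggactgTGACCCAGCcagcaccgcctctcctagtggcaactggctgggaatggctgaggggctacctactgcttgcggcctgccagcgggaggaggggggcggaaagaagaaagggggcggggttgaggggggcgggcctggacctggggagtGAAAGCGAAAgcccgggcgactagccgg
PSMB10 and PSME2 carry the same string, GAAAGCGAAA, starting 21 and 28 bases before the gene start. PSMB9, PSME1 and PSME2 each hold a match to the antioxidant response element, 148, 86 and 175 bases before the start. The PSMB8 window shown, that of the outer of its RefSeq starts, holds none of the 3, and the inner one holds TTCTCGGAA 65 bases before its start. Of 17 strings searched these 3 are given. Among the 42 proteasome genes with a window, the paired GAAA was found in 5 (PSMA4, PSMB4, PSMB10, PSME2 and PSMG4), TTCNNNGAA in 7 and TGACNNNGC in 13, against 3.02%, 6.57% and 10.9% of all 35116 windows. Some genes have several windows, so these shares are not on the same footing as the gene counts. A match is a description of the letters and not a binding site.

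Across the 47 tested proteasome genes the inhibitor moved levels in both directions. In SUDHL6, 13 rose and 22 fell, against 26.8% and 41.3% of all genes tested. In Farage, 9 rose (25.4% of all genes) and 26 fell (46.5%). In SUDHL4, 7 rose (24.3%) and 29 fell (46.2%). In the mean of the 3 lines, 14 rose (30.1%) and 29 fell (53.8%), and 4 were not called. Read against all genes, the shares that rose were close in SUDHL6 and the mean and lower in Farage and SUDHL4, and the shares that fell were above in each line, most so in SUDHL4; the gaps were not tested. In the mean, on the deposited scale, 8 of the 47 fell at least 2-fold, a share close to the 16.0% of all genes. No proteasome gene rose that much there (6.08% of all genes). Those 8 were PSMB8, PSMB9, PSMB10, PSME2, PSMG1, PSMG3, PSMG4 and PSMD5, all of them from the immunoproteasome or the assembly factors.

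The scale matters for small changes. The median change of all genes was -0.13 in SUDHL6, -0.22 in Farage, -0.21 in SUDHL4 and -0.24 in the mean, and that of the proteasome genes was -0.10, -0.30, -0.32 and -0.27. When libraries were rescaled by median-of-ratios factors, which moves the median gene to between -0.045 and 0.0, the split became 21 higher and 17 lower in SUDHL6, 17 and 17 in Farage, 16 and 20 in SUDHL4, and 18 and 21 in the mean. Over all genes called, the share that was higher went from 35.8% to 47.4% in the mean. Of the 29 falls in the mean, 21 were also called under median-of-ratios scaling, edgeR and DESeq2, as were all 14 rises. The 8 falls that were not are PSMA3, PSMA5, PSMB4, PSMC2, PSMC3, PSMD2, PSMD13 and PSMF1. The genes past 2-fold in the mean also depended on the scale. With median-of-ratios scaling, edgeR and DESeq2 PSMD11 rose by 1.003, 1.021 and 1.017. In the same order PSME2 was at -0.88, -0.91 and -0.91, and PSMG1 at -0.92, -0.94 and -0.95, all short of 2-fold. PSMB10 was at -0.98 with median-of-ratios scaling. PSMA8, near 0 CPM outside SUDHL4, was at -1.07 with edgeR and -1.09 with DESeq2.

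**Figure D1:**
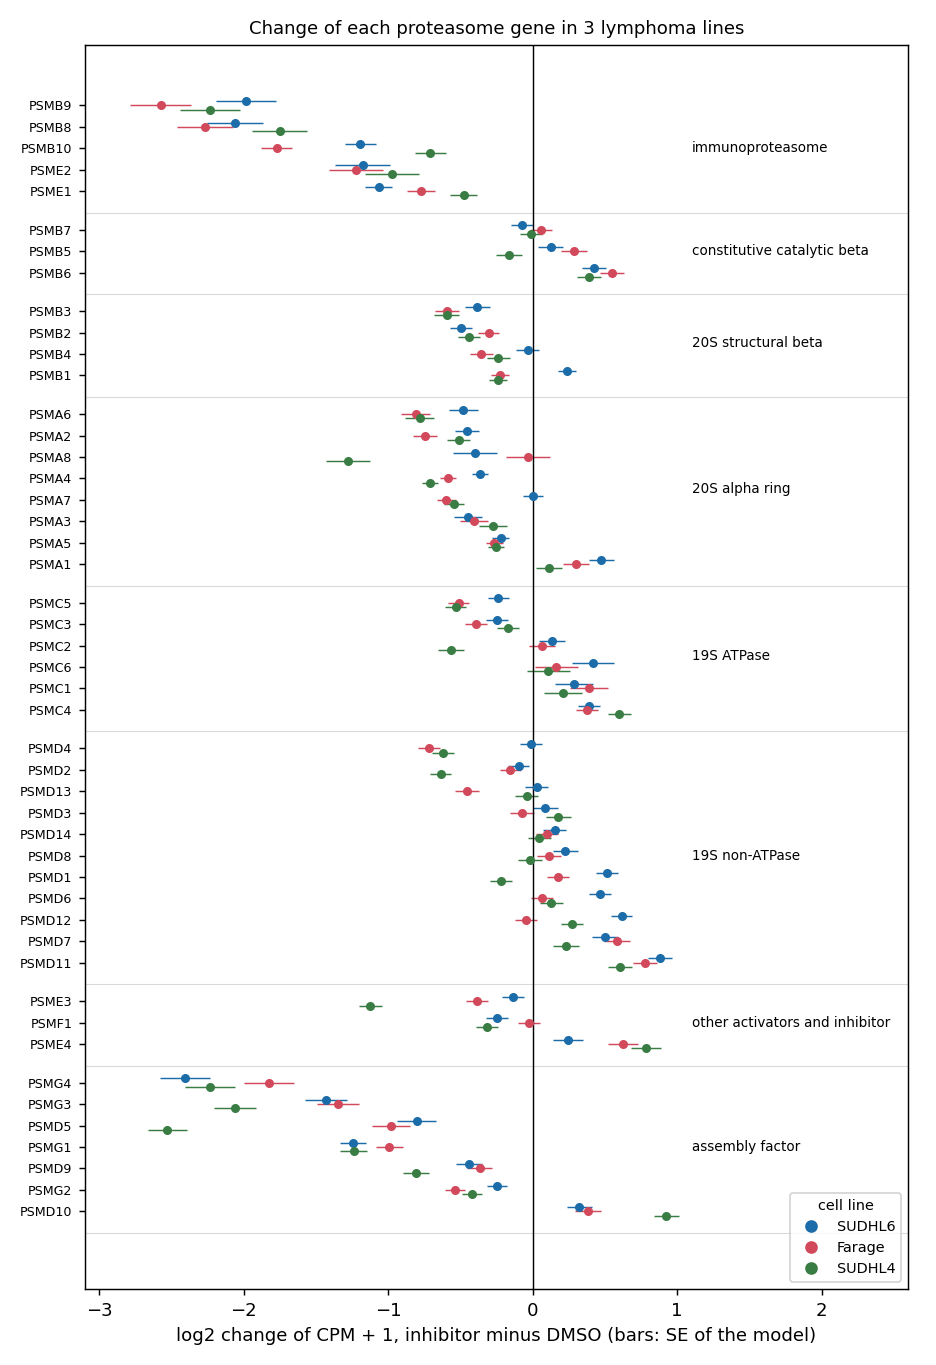
Log2 change of CPM + 1, inhibitor minus DMSO, of the 47 tested proteasome genes (one row each, grouped by role) in SUDHL6, Farage and SUDHL4; each point is 1 line, the bars are the SE of the limma model. The immunoproteasome genes and most assembly factors lie far to the left in all 3 lines, at -0.48 to -2.58 for the immunoproteasome, while the 19S genes lie on both sides of 0.

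All 5 immunoproteasome genes fell in each of the 3 lines. A fall in every line was called for 19 of the 47 proteasome genes and 28.3% of all genes. The inhibitor and DMSO libraries of these 5 genes overlapped in no line; libraries were separated in this direction for 36.5%, 53.2% and 51.6% of all genes in SUDHL6, Farage and SUDHL4.

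PSMB9, the subunit that takes the place of PSMB6, changed most of the 5 in the mean, in Farage and in SUDHL4. In SUDHL6 the change of PSMB8 was larger on the CPM + 1 scale only. There edgeR put PSMB9 at -2.75 and PSMB8 at -1.97. With DMSO PSMB9 was at 5.12, 8.99 and 6.53 CPM in SUDHL6, 50.86, 60.44 and 50.13 in Farage and 25.21, 23.88 and 20.8 in SUDHL4. With the inhibitor it was at 0.344, 1.16 and 1.57 CPM, 8.80, 7.005 and 8.82, and 4.28, 4.73 and 3.52. Every treated library of a line was thus well under every DMSO library, and SUDHL6 was low in both conditions. The log2 changes were -1.98, -2.58 and -2.23 (SE 0.21 each; limma adjusted p = 4.27e-07, 1.78e-08 and 8.12e-08), a 3.96-fold, 5.96-fold and 4.70-fold fall of CPM + 1. In SUDHL6 the added pseudocount makes the fall smaller than that of the CPM themselves, because the treated level is near 1 CPM.

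PSMB8, which replaces PSMB5, was at 32.82, 39.34 and 31.16 CPM in SUDHL6 with DMSO and 4.65, 10.48 and 8.34 with the inhibitor. In Farage it went from 66.6, 82.25 and 71.61 to 13.59, 12.88 and 17.03 CPM, and in SUDHL4 from 79.94, 80.97 and 65.59 to 20.55, 22.5 and 21.85. The 3 lines therefore ended at different levels, lowest in SUDHL6 and highest in SUDHL4. The changes were -2.06, -2.27 and -1.75 (SE 0.19; adjusted p = 1.16e-07, 2.81e-08 and 4.85e-07).

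PSMB10, which replaces PSMB7, showed the clearest difference between lines. In SUDHL6 it went from 73.77, 71.17 and 70.04 to 28.7, 35.57 and 28.51 CPM. Farage went from 60.13, 59.27 and 54.61 to 15.8, 14.65 and 18.51 CPM, and SUDHL4 from 49.73, 48.95 and 39.36 to 26.75, 29.65 and 26.61. Farage thus had the lowest treated level of the 3 lines although its DMSO level lay between those of the others. The changes were -1.19, -1.77 and -0.71 (SE 0.11; adjusted p = 8.76e-08, 7.89e-10 and 1.98e-05). The response in Farage was larger than in SUDHL6 by 0.58 and than in SUDHL4 by 1.07 on the log2 scale (SE 0.15, adjusted p = 0.0072 and 4.85e-05), and that in SUDHL6 exceeded that in SUDHL4 by 0.49 (a difference of -0.49, adjusted p = 0.0215).

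PSME1, the alpha subunit of PA28, fell least. It went from 93.37, 105.6 and 94.67 to 38.72, 53.96 and 47.23 CPM in SUDHL6, from 175.1, 185.0 and 177.9 to 102.6, 103.0 and 108.0 in Farage, and from 124.3, 131.9 and 118.0 to 87.69, 94.04 and 86.32 in SUDHL4. The treated libraries lay under the DMSO libraries of their line in each case, and those of Farage stayed near the DMSO level of SUDHL6. The changes were -1.06, -0.77 and -0.48 (SE 0.09; adjusted p = 6.1e-08, 1.57e-06 and 0.000236). In SUDHL4 PSME1 was no longer called under median-of-ratios scaling (-0.17, adjusted p = 0.0572) or edgeR (-0.16, adjusted p = 0.093). SUDHL6 responded more than SUDHL4, by -0.59 (adjusted p = 0.00273).

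PSME2, the beta subunit of PA28, was at 50.92, 50.67 and 89.74 CPM in SUDHL6 with DMSO and 21.0, 24.56 and 36.48 with the inhibitor. Replicate 3 of each group, the shallow library, was the highest. Farage went from 98.95, 106.3 and 97.75 to 41.05, 43.01 and 43.96 CPM and SUDHL4 from 42.54, 42.59 and 39.93 to 19.22, 21.93 and 21.15, so the treated level was under the DMSO level in all 3 lines. The changes were -1.18, -1.22 and -0.97 (SE 0.19; adjusted p = 3.72e-05, 2.2e-05 and 0.000208). RefSeq lists 6 pseudogene symbols of PSME2, and reads of near-identical copies may be split in an unknown way.

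For PSMB8, PSMB9 and PSME2 no difference of response between lines was called. The difference between SUDHL6 and Farage in PSMB9 was 0.59 (SE 0.30, limma adjusted p = 0.13), and with the replicate number as a block it was called (adjusted p = 0.0433). This direction belongs to the CPM + 1 scale, on which treated SUDHL6 is near the pseudocount. On the recovered reads the fall was larger in SUDHL6, at -2.75 against -2.47 in Farage with edgeR and -2.76 against -2.46 with DESeq2. For PSME1, with the block, the response in Farage also differed from that in SUDHL6 (-0.29, limma adjusted p = 0.0338, against 0.0968 without it) and from that in SUDHL4 (0.30, adjusted p = 0.0309, against 0.0901). In Farage and SUDHL4 the libraries of a block share only a number.

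**Figure D2:**
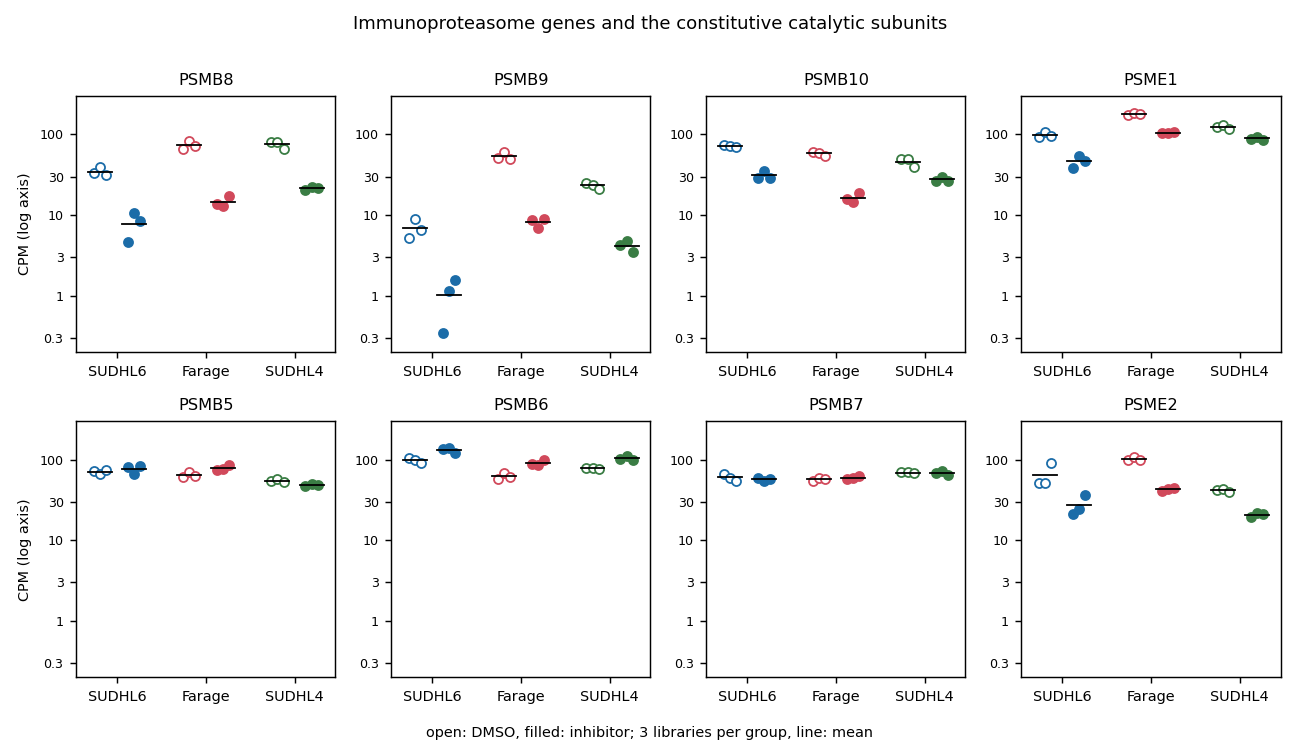
CPM (log axis) of the 5 immunoproteasome genes and of PSMB5, PSMB6 and PSMB7, the constitutive catalytic subunits, in SUDHL6, Farage and SUDHL4; open circles are DMSO and filled circles inhibitor libraries, 3 per group, and the line is the mean. The 5 immunoproteasome genes are lower with the inhibitor in every line, PSMB6 is higher, and PSMB7 overlaps.

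The constitutive catalytic subunits did not follow the immunoproteasome genes. PSMB6 rose in each line, as did 6 of the 47 proteasome genes (the others were PSMC4, PSMD7, PSMD10, PSMD11 and PSME4) and 14.7% of all genes. It was at 104.6, 99.41 and 89.64 CPM with DMSO and 135.1, 139.1 and 120.9 with the inhibitor in SUDHL6, at 57.52, 68.67 and 61.16 and then 89.04, 86.32 and 99.98 in Farage, and at 79.14, 79.04 and 77.48 and then 102.0, 109.7 and 98.35 in SUDHL4. No treated library lay under a DMSO library of its line. The changes were 0.43, 0.55 and 0.39 (SE 0.08; adjusted p = 0.000295, 2.14e-05 and 0.000574).

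PSMB5, the target of bortezomib, rose in Farage, from 60.42, 70.12 and 63.14 to 74.54, 76.61 and 85.87 CPM (0.29, adjusted p = 0.0083). In SUDHL6 its libraries overlapped, at 66.86 to 73.47 CPM with DMSO and 66.75 to 83.59 with the inhibitor (0.12, adjusted p = 0.23); without the second inhibitor library this became a called rise of 0.23 (adjusted p = 0.0218). In SUDHL4 all treated libraries were lower, at 47.11 to 50.51 against 52.19 to 56.65 CPM, but the change was not called (-0.16, adjusted p = 0.11), except when SUDHL4 alone was fitted (adjusted p = 0.0269). The response of PSMB5 in SUDHL4 differed from that in Farage by -0.45 (adjusted p = 0.00964). PSMB7 was at 54.0 to 72.79 CPM over all 18 libraries, with changes of -0.07, 0.06 and -0.01 that were not called. With median-of-ratios scaling PSMB5 in SUDHL6 (0.30, adjusted p = 0.0119) and PSMB7 in Farage and SUDHL4 (0.31 and 0.29, adjusted p = 0.00226 and 0.00331) were called higher, and PSMB5 in SUDHL4 stood at 0.14 (adjusted p = 0.214).

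The ratio of an immunoproteasome subunit to the subunit it replaces does not depend on the scaling of a library. PSMB8/PSMB5 was 0.490 ± 0.087 with DMSO and 0.104 ± 0.050 with the inhibitor in SUDHL6 (SD, n = 3), a 4.69-fold difference. In Farage it went from 1.14 ± 0.035 to 0.183 ± 0.015, 6.21-fold, and in SUDHL4 from 1.38 ± 0.11 to 0.446 ± 0.010, 3.10-fold. SUDHL6 with DMSO was thus already close to treated SUDHL4.
PSMB9/PSMB6 went from 0.0708 ± 0.021 to 0.00794 ± 0.0052 in SUDHL6, from 0.861 ± 0.036 to 0.0894 ± 0.0089 in Farage and from 0.296 ± 0.026 to 0.0403 ± 0.0040 in SUDHL4, that is 8.91-fold, 9.64-fold and 7.35-fold. PSMB10/PSMB7 went from 1.20 ± 0.080 to 0.545 ± 0.098, from 1.02 ± 0.081 to 0.275 ± 0.025 and from 0.667 ± 0.072 to 0.405 ± 0.012, that is 2.19-fold, 3.71-fold and 1.65-fold. In all 9 comparisons of a pair within a line the DMSO and inhibitor libraries did not overlap, which is a description and was given no test.

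**Figure D3:**
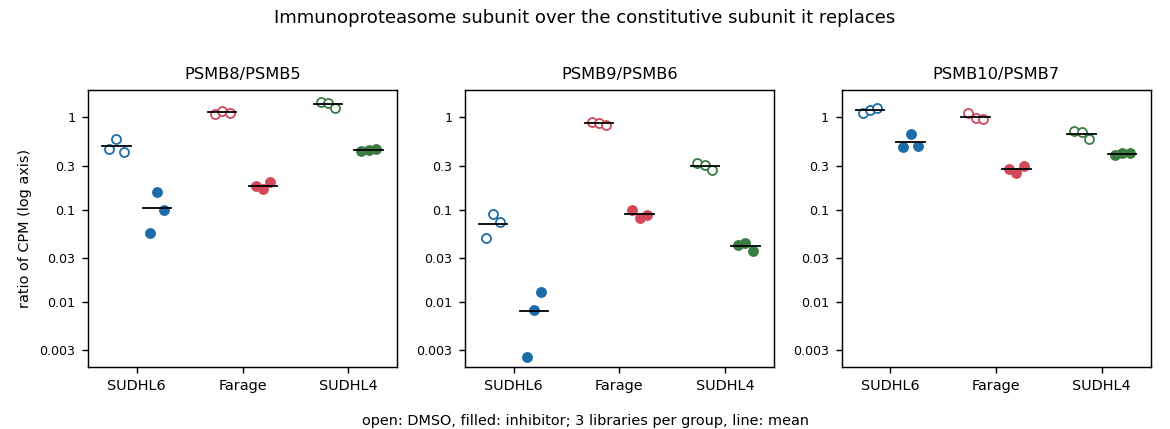
Ratio of CPM (log axis) of PSMB8 to PSMB5, PSMB9 to PSMB6 and PSMB10 to PSMB7 in the 3 libraries per group (open circles DMSO, filled circles inhibitor, line at the mean). Each ratio is lower with the inhibitor in every line, by 1.65-fold to 9.64-fold, and the PSMB9 ratio of SUDHL6 is the lowest in both conditions.

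The lines also differed before treatment. Of the 47 proteasome genes, 32 differed in DMSO level between SUDHL6 and Farage (71.3% of all genes), 15 higher and 17 lower in SUDHL6 (37.5% and 33.8%). Between SUDHL4 and Farage 31 differed (67.1%), 9 higher and 22 lower in SUDHL4 (31.1% and 36.0%), and between SUDHL6 and SUDHL4 31 (68.6%), 22 higher and 9 lower in SUDHL6 (38.5% and 30.1%). Levels are given per kb of GENCODE transcript where genes are compared. In Farage with DMSO, PSMB8, PSMB9 and PSMB10 stood at 65.4, 68.8 and 47.6 CPM per kb, near PSMB5, PSMB6 and PSMB7 at 49.9, 73.3 and 58.2. In SUDHL6 they stood at 30.6, 8.80 and 58.8 CPM per kb beside 54.6, 115 and 61.4, and in SUDHL4 at 67.2, 29.8 and 37.8 beside 42.1, 92.2 and 70.3. PSMB9 had the widest spread of these genes between lines. Its DMSO level in SUDHL6 was lower than in Farage by a log2 difference of -2.82 (SE 0.21, adjusted p = 2.82e-09), and in SUDHL4 lower than in Farage by -1.17 (adjusted p = 0.000106) and higher than in SUDHL6, a difference of -1.65 for SUDHL6 minus SUDHL4 (adjusted p = 2.84e-06). For PSMB8 SUDHL6 was lower than Farage (-1.07, adjusted p = 1e-04), while SUDHL4 and Farage did not differ beyond their spread (0.04, adjusted p = 0.876). The order of PSMB10 was SUDHL6, Farage, SUDHL4, with neighbouring differences of 0.30 (adjusted p = 0.0202) and 0.33 (SUDHL4 minus Farage -0.33, adjusted p = 0.0122). Neither neighbouring call held without every library: it was lost without SUDHL6 DMSO replicate 1 or Farage DMSO replicate 3 in the first (adjusted p up to 0.0775) and without SUDHL4 DMSO replicate 3 in the second (adjusted p = 0.0792). The responses and these DMSO differences share the DMSO libraries, so the values stand side by side only.

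The alpha ring genes mostly fell a little. Of the 8, 7 fell and 1 rose in the mean (53.8% and 30.1% of all genes). Their changes were -0.69 to 0.30, with a median of -0.47 (all genes: -0.24). With median-of-ratios scaling 5 fell, 1 rose and 2 were not called in the mean, with a median of -0.22 (all genes: -0.045). PSMA6 had the largest mean change. With DMSO its libraries spanned 65.96–81.82 CPM (SUDHL6), 78.76–97.08 (Farage) and 80.12–84.91 (SUDHL4), and with the inhibitor 44.74–58.58, 48.67–51.67 and 45.87–49.8. None of its groups overlapped, and the mean change was -0.69 (SE 0.06, adjusted p = 8.18e-09). PSMA2 (-0.57) and PSMA4 (-0.55) fell in every line as well. PSMA3 (-0.38) and PSMA5 (-0.25) did so on the deposited scale only: with median-of-ratios scaling the mean change of PSMA5 was 0.00 and the SUDHL4 changes of PSMA3 and PSMA5 were 0.03 and 0.05. The SUDHL4 call of PSMA3 was also lost without DMSO replicate 1 or inhibitor replicate 3 of that line (adjusted p up to 0.0778). PSMA1 was the exception in direction, with 151.1 to 177.5 CPM in SUDHL6 with DMSO and 205.7 to 266.6 with the inhibitor; it rose there by 0.48 and in Farage by 0.30 (adjusted p = 0.000159 and 0.00599) and by 0.30 in the mean, and with median-of-ratios scaling a rise was called in SUDHL4 too (0.42, adjusted p = 0.00145). PSMA7 fell in Farage (-0.60) and SUDHL4 (-0.54) and was at 145.3 to 156.6 CPM with DMSO and 143.9 to 157.5 with the inhibitor in SUDHL6, where median-of-ratios scaling gave a called rise (0.18, adjusted p = 0.0275). That difference of response was called, at 0.60 against Farage and 0.54 against SUDHL4 (adjusted p = 0.000159 and 0.000428).

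PSMA8 encodes an alternative alpha subunit known from the testis, where it takes the place of PSMA7 in meiotic cells. In SUDHL4 with DMSO it was at 125.7, 109.7 and 113.0 CPM, and with the inhibitor at 47.18, 46.09 and 48.6. In the other 12 libraries it reached at most 0.906 CPM. It was thus abundant in 1 of the 3 lines and under 1 CPM in the others. Per kb it stood at 64.4 CPM in SUDHL4 with DMSO. The SUDHL4 change was -1.28 (SE 0.15, adjusted p = 1.4e-06). On the CPM + 1 scale its response differed from that of Farage by -1.25, but near 0 CPM a fold is not well defined: edgeR gave -0.85 (adjusted p = 0.522), and the difference of SUDHL6 minus SUDHL4 turned from 0.88 to -1.13 with edgeR and -1.19 with DESeq2. A fall of PSMA8 called in SUDHL6 (-0.40, adjusted p = 0.0293) rests on levels of 0.107 to 0.906 CPM with DMSO and 0.0444 to 0.242 with the inhibitor, which overlap. It was lost without SUDHL6 DMSO replicate 1 or 2 or inhibitor replicate 2 (adjusted p up to 0.182), while edgeR put the same change at -2.10 (adjusted p = 0.00683).

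Among the structural beta subunits, which carry no active site, PSMB2 and PSMB3 fell in all 3 lines, with mean changes of -0.41 and -0.52 (SE 0.04 and 0.05; adjusted p = 1.23e-07 and 3.81e-08). With median-of-ratios scaling PSMB2 was no longer called in Farage (-0.05, adjusted p = 0.503) or SUDHL4 (-0.13, adjusted p = 0.0746), and the SUDHL6 call of PSMB3 was lost with edgeR (-0.19, adjusted p = 0.0805). PSMB4 fell in Farage (-0.35) and SUDHL4 (-0.24) and was at -0.03 in SUDHL6. Its mean change of -0.21 turned to 0.04 with median-of-ratios scaling, and its SUDHL4 call was lost without inhibitor replicate 1 (adjusted p = 0.0608). PSMB1 went opposite ways between lines on the deposited scale, as did PSMD1, the 2 of the 47 genes for which this was called (6.63% of all genes). With median-of-ratios scaling it was called for neither. PSMB1 went from 149.7, 135.8 and 145.8 to 166.1, 163.1 and 179.3 CPM in SUDHL6 (0.24, adjusted p = 0.00267), from 165.4, 177.8 and 172.0 to 139.4, 147.6 and 153.7 in Farage (-0.22, adjusted p = 0.00358) and from 149.7, 144.6 and 142.8 to 121.4, 123.4 and 124.9 in SUDHL4 (-0.24, adjusted p = 0.00222). The treated libraries were all above DMSO in the first line and all below in the others. The falls turned to 0.03 and 0.07 with median-of-ratios scaling. On the deposited scale the difference of SUDHL6 from Farage was 0.46 and from SUDHL4 0.47 (adjusted p = 0.000607 and 0.000539). With median-of-ratios scaling these differences were 0.386 and 0.346.

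The 6 ATPases of the 19S ring, which unfold substrates and open the gate, split evenly on the deposited scale, with 3 higher and 3 lower in the mean (30.1% and 53.8% of all genes). With median-of-ratios scaling 3 were higher and 1 lower in the mean, 4 and 0 in SUDHL6, 4 and 1 in Farage and 3 and 2 in SUDHL4. PSMC4 rose in every line. With DMSO it spanned 135.4–138.7 CPM in SUDHL6, 85.57–87.32 in Farage and 53.64–61.77 in SUDHL4, and with the inhibitor 168.0–190.4, 107.8–123.7 and 79.15–92.76. The groups did not overlap, and the mean change was 0.46 (SE 0.05, adjusted p = 7.25e-08). PSMC5 fell in every line, with a mean of -0.43 (adjusted p = 6.2e-08), and PSMC3 fell in SUDHL6 and Farage, with a mean of -0.27 (adjusted p = 2.48e-05). The SUDHL6 calls of PSMC5 (-0.24) and PSMC3 (-0.25) were lost without inhibitor replicate 3 (adjusted p = 0.051) and replicate 2 (0.0524), respectively, and with median-of-ratios scaling. That scaling also ended the call of PSMC3 in Farage (-0.14, adjusted p = 0.173) and in the mean (-0.02, adjusted p = 0.675). PSMC2 fell in SUDHL4, from 103.4, 96.61 and 104.2 to 68.65, 62.36 and 74.24 CPM (-0.56, adjusted p = 2.96e-05), and its response there differed from that in Farage by -0.63 and from that in SUDHL6 by 0.70 for SUDHL6 minus SUDHL4 (adjusted p = 0.00101 and 0.000527). Its called mean change of -0.12 was lost without any of 11 libraries and turned to 0.125 with median-of-ratios scaling; PSMC2 was not called in SUDHL6 (0.135, adjusted p = 0.194) or Farage (0.06, adjusted p = 0.55) on the deposited scale and was called higher in both with that scaling (0.32 each). PSMC6 rose in the mean by 0.23 (adjusted p = 0.0202); its SUDHL6 call (0.42) was lost without DMSO replicate 1 or 2 or inhibitor replicate 3 (adjusted p up to 0.121), and with median-of-ratios scaling it was called in Farage and SUDHL4 as well (0.41 each). PSMC1 was counted at 1.47 to 3.42 CPM only, far under the other ATPases. RefSeq lists 13 pseudogene symbols for it, so its level is uncertain, as is its mean rise of 0.29 (adjusted p = 0.00194); the Farage call was lost without inhibitor replicate 2 (adjusted p = 0.0636). Before treatment 4 of the 6 ATPases were higher in SUDHL6 than in SUDHL4 (38.5% of all genes), and 2 were not called. PSMC3, PSMC4 and PSMC5 were higher with DMSO in SUDHL6 than in SUDHL4 by 1.05, 1.27 and 1.24 (adjusted p = 3.43e-09, 4.05e-10 and 2.26e-10). For these 3 Farage was between.

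Of the 11 non-ATPase genes of the cap, 7 rose and 3 fell in the mean (30.1% and 53.8% of all genes). The median was 0.11 against -0.24 for all genes. With median-of-ratios scaling 8 rose and 1 fell. PSMD11, a scaffold subunit, rose most. It went from 104.9, 96.99 and 94.56 to 214.0, 164.0 and 174.2 CPM in SUDHL6, from 113.1, 116.0 and 116.6 to 191.6, 196.7 and 207.3 in Farage, and from 83.85, 84.48 and 92.65 to 132.6, 137.7 and 127.8 in SUDHL4. No libraries overlapped, and the changes were 0.88, 0.78 and 0.60 (SE 0.08; adjusted p = 1.41e-07, 4.28e-07 and 6.92e-06). The difference of SUDHL6 from SUDHL4 was 0.28 (adjusted p = 0.0798, and 0.0441 with the replicate block). PSMD7 rose by 0.44 in the mean (adjusted p = 7.25e-07). In SUDHL4 its rise of 0.23 (adjusted p = 0.0322) was lost without any of 5 of the 6 SUDHL4 libraries, all but inhibitor replicate 3 (adjusted p up to 0.124). With median-of-ratios scaling of all libraries the SUDHL4 rise was 0.54 (limma adjusted p = 0.000335).

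PSMD4, a ubiquitin receptor of the cap, fell in Farage and SUDHL4 and not in SUDHL6. It was at 102.9, 100.2 and 110.6 CPM with DMSO and 94.22, 106.1 and 111.9 with the inhibitor in SUDHL6, an overlap. In Farage it went from 92.03, 98.57 and 87.48 to 52.75, 55.03 and 60.18 CPM and in SUDHL4 from 74.73, 77.83 and 70.18 to 46.56, 48.87 and 48.18, with no overlap. The changes were -0.01, -0.72 and -0.62 (SE 0.08), and the differences of SUDHL6 from the others were 0.71 and 0.61 (adjusted p = 0.000109 and 0.000463). With median-of-ratios scaling PSMD4 was called higher in SUDHL6 (0.17, adjusted p = 0.0397). PSMD1, the large scaffold, went from 174.2, 158.9 and 173.7 to 279.6, 220.0 and 230.5 CPM in SUDHL6 (0.52, adjusted p = 1.61e-05) and from 135.1, 134.1 and 135.4 to 117.8, 118.3 and 111.5 in SUDHL4 (-0.22, adjusted p = 0.0179). The difference between these lines was 0.74 (adjusted p = 8.5e-05). The fall in SUDHL4 was lost without inhibitor replicate 3 (adjusted p = 0.064) and turned to 0.09 with median-of-ratios scaling. In Farage the change was 0.17 (adjusted p = 0.0527), called with the replicate block (0.0341) and with median-of-ratios scaling (0.43, adjusted p = 0.000844). PSMD3 was not called in any line on the deposited scale (mean 0.06). With median-of-ratios scaling it was called higher in SUDHL6 (0.27, adjusted p = 0.0218), SUDHL4 (0.49, adjusted p = 0.000272) and the mean (0.31, adjusted p = 7.06e-05). On the deposited scale the mean rises of PSMD8 (0.11) and PSMD14 (0.10) were each lost without any of 13 of the 18 libraries (adjusted p up to 0.113 and 0.0982). With median-of-ratios scaling PSMD14, the deubiquitinase of the lid, was called higher in each line, at 0.33, 0.35 and 0.35, and PSMD8 was called higher in Farage and SUDHL4 too (0.37 and 0.29).

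Among the other activators and the inhibitor, PSME3 and PSME4 went apart. PSME3, a nuclear activator of the core, went from 207.9, 215.0 and 186.1 to 91.53, 95.5 and 90.53 CPM in SUDHL4 and from 193.3, 212.7 and 200.9 to 148.8, 150.5 and 164.3 in Farage, with no overlap. In SUDHL6 it was at 228.0 to 250.9 with DMSO and 198.2 to 239.2 with the inhibitor. The changes were -0.135, -0.39 and -1.12 in SUDHL6, Farage and SUDHL4 (adjusted p = 0.136, 0.000298 and 2.89e-09), and SUDHL4 differed from Farage by -0.74 and SUDHL6 from SUDHL4 by 0.99 (adjusted p = 6.88e-05 and 6.92e-06). The fall of PSME3 in Farage was not called under median-of-ratios scaling (-0.13, adjusted p = 0.151), and a fall was called in SUDHL6 without inhibitor replicate 3 (-0.20, adjusted p = 0.0287). Because PSME3 fell more in SUDHL4 than PSME1, the PSME1/PSME3 ratio rose there from 0.615 ± 0.018 to 0.965 ± 0.017 while it dropped from 0.412 ± 0.046 to 0.217 ± 0.049 in SUDHL6 and from 0.887 ± 0.018 to 0.677 ± 0.017 in Farage (SD, n = 3, no test). PSME4, the large PA200 activator, rose in Farage, from 143.3–144.5 to 217.3–225.8 CPM (0.62, adjusted p = 5.74e-05). SUDHL4 went from 170.6–192.2 to 304.1–318.7 CPM (0.78, adjusted p = 4.91e-06). In SUDHL6 the PSME4 libraries overlapped, at 190.6–229.5 CPM with DMSO and 208.2–308.1 with the inhibitor. The call there (0.25, adjusted p = 0.0493) was lost when any of 16 of the 18 libraries was left out (adjusted p up to 0.331). The exceptions were SUDHL6 DMSO replicate 1 and inhibitor replicate 2. With median-of-ratios scaling of all libraries the SUDHL6 rise was 0.43 (limma adjusted p = 0.00737). PSMF1, an inhibitor of the core, fell by -0.20 in the mean (adjusted p = 0.000618), which became 0.05 with median-of-ratios scaling; its SUDHL6 call was lost without inhibitor replicate 1 (adjusted p = 0.0556).

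The assembly factors fell with the immunoproteasome genes, with a single exception. In each line 6 of the 7 fell and PSMD10 rose. Of all genes 41.3%, 46.5% and 46.2% fell in SUDHL6, Farage and SUDHL4, and 26.8%, 25.4% and 24.3% rose. The median change of the assembly factors was -0.80 in SUDHL6, -0.98 in Farage, -1.24 in SUDHL4 and -1.16 in the mean. That of all genes was -0.13, -0.22, -0.21 and -0.24. With median-of-ratios scaling 5 of the 7 were still called lower in each line. PSMG4, a partner of PSMG3 in building the alpha ring, went from 28.04, 32.62 and 31.49 to 3.27, 6.22 and 5.92 CPM in SUDHL6. It went from 6.63, 6.56 and 6.55 to 1.53, 0.866 and 1.07 CPM in Farage and from 10.44, 9.53 and 8.11 to 1.40, 1.28 and 0.926 in SUDHL4. SUDHL6 had the highest level before treatment, and its treated libraries were near the DMSO level of Farage. The changes were -2.41, -1.82 and -2.23 (SE 0.17, limma adjusted p = 9.13e-09, 1.04e-07 and 1.06e-08). The difference of SUDHL6 from Farage was -0.58 (adjusted p = 0.0759, and 0.0242 with the replicate block). The pseudocount shrinks the falls in Farage and SUDHL4, where treated levels are near 1 CPM. In the same order edgeR gave -2.42, -2.25 and -2.61, so SUDHL6 and Farage were closer and SUDHL4 fell most.

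PSMG3 went from 45.99, 43.46 and 46.05 to 11.49, 19.27 and 18.84 CPM in SUDHL6, from 23.87, 26.1 and 24.74 to 8.70, 8.85 and 10.02 in Farage, and from 33.82, 34.48 and 30.15 to 7.08, 6.37 and 7.87 in SUDHL4. The treated groups stood below the DMSO groups everywhere, and the changes were -1.43, -1.35 and -2.06 (SE 0.14; adjusted p = 2.71e-07, 4.08e-07 and 3.29e-09). SUDHL4 differed from Farage by -0.715 (adjusted p = 0.0114) and SUDHL6 from SUDHL4 by 0.63 (adjusted p = 0.0244), and the second call was lost without any of 6 libraries (adjusted p up to 0.0613): SUDHL6 DMSO replicate 2, SUDHL6 inhibitor replicates 2 and 3, SUDHL4 DMSO replicates 1 and 2 and SUDHL4 inhibitor replicate 2. PSMG1, which pairs with PSMG2 to start the alpha ring, fell by similar amounts in the lines, with changes of -1.24, -0.99 and -1.24 (SE 0.09), from 59.05–66.08, 35.38–38.41 and 50.48–54.75 CPM to 22.07–28.27, 16.03–19.06 and 20.66–22.28. Its partner PSMG2 fell less, with changes of -0.24, -0.54 and -0.42 (SE 0.07). With median-of-ratios scaling, its calls in SUDHL6 (-0.07, adjusted p = 0.411) and SUDHL4 (-0.12, adjusted p = 0.148) were lost.

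PSMD5, a chaperone of the 19S base, had the largest difference of response between lines of all tested proteasome genes. In SUDHL4 it went from 38.93, 38.31 and 31.86 to 5.24, 5.34 and 5.79 CPM. In SUDHL6 it went from 41.83, 40.51 and 46.05 to 17.85, 28.6 and 27.3 CPM and in Farage from 57.2, 62.57 and 60.61 to 28.7, 29.79 and 31.42. Before treatment Farage was the highest and SUDHL6 and SUDHL4 did not differ (0.23, adjusted p = 0.134), and after it SUDHL4 was far below the others. The changes were -2.53, -0.80 and -0.98 (SE 0.13; adjusted p = 1.97e-10, 5.71e-05 and 6.03e-06), and SUDHL4 differed from Farage by -1.55 and SUDHL6 from SUDHL4 by 1.73 (adjusted p = 9.34e-06 and 6.07e-06). PSMD9, another chaperone of the base, fell by -0.54 in the mean (adjusted p = 3.78e-08), with changes of -0.44, -0.37 and -0.81; the Farage call was not kept with median-of-ratios scaling. PSMD10, the third, also known as gankyrin, rose from 30.96–35.44, 33.49–36.89 and 29.42–37.38 CPM to 39.97–43.79, 43.2–49.32 and 60.86–64.18. Its changes were 0.32, 0.38 and 0.93 (SE 0.09; adjusted p = 0.00384, 0.001 and 1e-07), and SUDHL4 exceeded Farage by 0.54 (adjusted p = 0.00273).

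**Figure D4:**
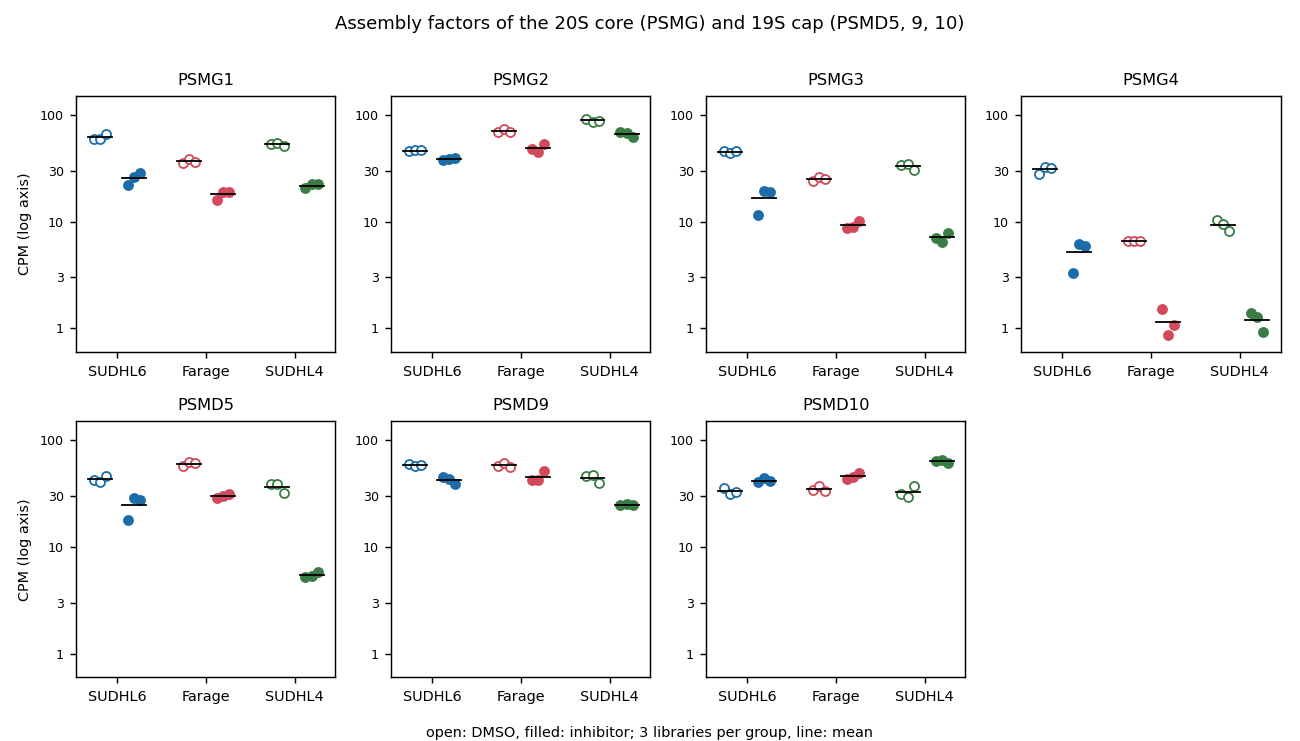
CPM (log axis) of the assembly factors of the 20S core (PSMG1 to PSMG4) and of the 19S cap (PSMD5, PSMD9, PSMD10) in SUDHL6, Farage and SUDHL4; open circles are DMSO and filled circles inhibitor libraries, 3 per group, and the line is the mean. All but PSMD10 are lower with the inhibitor in every line; PSMD5 falls to 5.24 to 5.79 CPM in SUDHL4.

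Differences of response between lines were called (adjusted p under 0.05) for 12 of the 47 proteasome genes between SUDHL6 and Farage (36.8% of all genes), 15 between SUDHL4 and Farage (37.4%) and 20 between SUDHL6 and SUDHL4 (35.0%). Against Farage all 12 of SUDHL6 were on the higher side (21.7% of all genes higher, 15.1% lower). Against SUDHL4, 16 were on the higher side and 4 on the lower (22.5% and 12.5%). For SUDHL4 against Farage, 4 were higher and 11 lower (17.7% and 19.7%). These splits belong to the deposited scale: with median-of-ratios scaling they became 6 higher and 4 lower, 10 and 5, and 5 and 9, in the same order. With the replicate block, PSME1, PSME4 and PSMG4 were also called between SUDHL6 and Farage, on the lower side. The 3 comparisons share lines and are not independent.

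**Figure D5:**
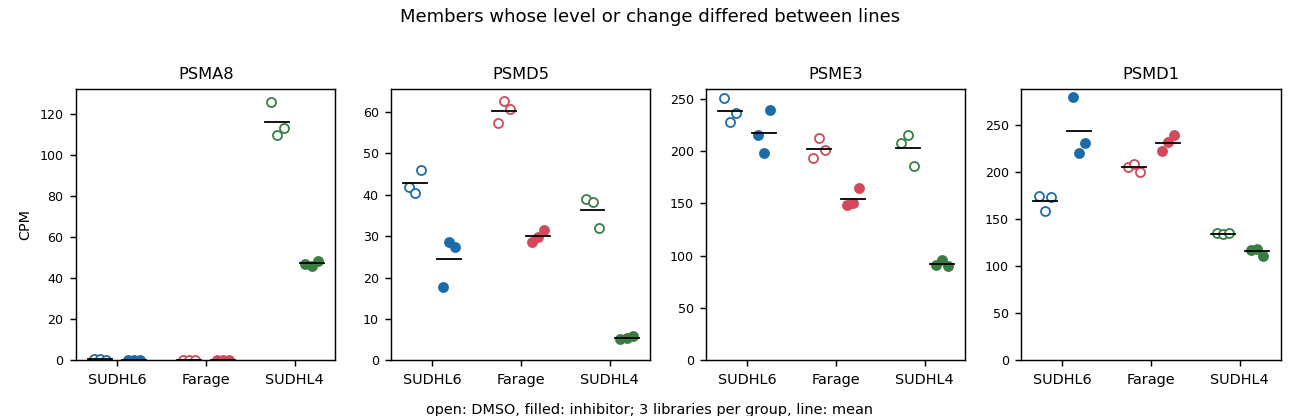
CPM of PSMA8, PSMD5, PSME3 and PSMD1, a set of genes whose level or change differed between lines, in SUDHL6, Farage and SUDHL4; open circles are DMSO and filled circles inhibitor libraries, 3 per group, the line is the mean, and each axis starts at 0. PSMA8 is seen in SUDHL4 (109.7 to 125.7 CPM with DMSO) and stays under 1 CPM elsewhere, PSMD5 and PSME3 are lowest in treated SUDHL4, and PSMD1 goes up in SUDHL6 and down in SUDHL4.

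Among 24 partners and regulators of the proteasome, 14 rose and 5 fell in the mean (30.1% and 53.8% of all genes), with a median of 0.30, and 10 rose in each of the 3 lines (14.7%); with median-of-ratios scaling 19 rose and 3 fell in the mean. ZFAND2A, a stress-induced zinc finger protein that associates with the 19S cap, went from 13.28–17.03 CPM in SUDHL6, 5.21–5.39 in Farage and 8.39–21.44 in SUDHL4 to 67.01–84.63, 68.68–74.61 and 95.62–172.7, a mean change of 3.03 (SE 0.15, adjusted p = 1.35e-11). NFE2L1, the transcription factor known to raise proteasome genes when proteasome activity is lost, went, in the same order, from 114.2–129.3, 148.8–153.4 and 89.52–137.5 CPM to 249.2–344.7, 370.6–388.5 and 431.8–475.2 (mean 1.59, SE 0.08, adjusted p = 1.52e-11). UBQLN1, a shuttle for ubiquitinated proteins, rose by 0.70, and UCHL5, a deubiquitinase of the cap, fell by -1.23 (adjusted p = 7.43e-11 and 2.09e-11). The polyubiquitin gene UBB and the core maturation factor POMP were chosen after their values were seen. UBB rose by 1.119 in the mean (adjusted p = 1.58e-09). POMP rose in SUDHL6 (0.55) and Farage (0.40) and was at -0.07 in SUDHL4 (adjusted p = 2.23e-05, 0.000435 and 0.493), which became 0.24 with median-of-ratios scaling.

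Of 17 genes of interferon signalling and peptide loading, the surroundings in which the immunoproteasome usually works, 5 rose and 9 fell in the mean, shares close to those of all genes (30.1% and 53.8%); with median-of-ratios scaling 6 rose and 9 fell. The peptide transporters TAP1 and TAP2 fell by -1.58 and -1.30 in the mean (adjusted p = 9.54e-09 and 5.97e-09); TAP1 went from 16.56–19.37 CPM in SUDHL6, 111.9–122.2 in Farage and 22.48–29.15 in SUDHL4 to 4.17–11.5, 24.29–34.3 and 7.55–7.87. JAK1, the kinase of the receptor, went the other way (mean 0.80, adjusted p = 1.51e-10), with a rise in SUDHL6 and SUDHL4 and a value of 0.19 in Farage (adjusted p = 0.0525) that was called with median-of-ratios scaling (0.44, adjusted p = 0.000113). NLRC5 and IRF1, which activate MHC class I and immunoproteasome genes, were chosen after their values were seen. NLRC5 was at 183.2 to 186.1 CPM in Farage with DMSO and 40.86 to 43.33 with the inhibitor, at 10.15 to 12.57 and 4.46 to 5.14 in SUDHL4, and at most 0.947 in SUDHL6. It fell in Farage and SUDHL4 (-2.12 and -1.08, adjusted p = 2.27e-09 and 3.81e-06). A rise called in SUDHL6 (0.35, adjusted p = 0.0388) rests on 0.107 to 0.270 CPM with DMSO and 0.178 to 0.947 with the inhibitor, which overlap, and it was lost without SUDHL6 DMSO replicate 2 or 3, SUDHL6 inhibitor replicate 1 or 3 or Farage DMSO replicate 3 (adjusted p up to 0.221). IRF1 rose in SUDHL6 (1.30) and SUDHL4 (0.82) and was at 0.05 in Farage (adjusted p = 5.08e-08, 5.55e-06 and 0.737); median-of-ratios scaling put the Farage value at 0.30 (adjusted p = 0.018).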

How the data were processed

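RNA-seq of 18 libraries used TruSeq kits, per the labels' protocols. The submitters' processing notes name STAR and the build hg19, and 1 label names Rsubread. Each deposited file gives CPM (read counts scaled to the same total per library) for 23250 gene symbols, scaled by the authors. Tool versions, strand handling and annotation release: not given in the sources used here. Dividing by the value of 1 read gave whole reads for 100% of values within 0.01 reads. The listed genes held 74.63% to 80.72% of the total behind each CPM value, or 6289956 to 25492726 reads per library, and 3 reads corresponded to 0.095 to 0.362 CPM; these limits cover counting error only.

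Changes were tested with limma 3.58.1 (R 4.3.3, trend) on log2(CPM + 1), over genes with at least 1 CPM in at least 3 libraries (12769), with 1 mean for each of the 6 groups, 12 residual degrees of freedom, 10 contrasts, and Benjamini-Hochberg adjustment over all genes at 0.05. The pseudocount understates changes of genes near 1 CPM. The code was tested on simulated data. Alternatives were a pseudocount of 0.25, no filter, a mean of at least 5 CPM, median-of-ratios scaling, a replicate block, a fit of the compared line only, edgeR 4.0.16 (TMM) and DESeq2 1.42.0 on the recovered reads, each library left out, and both shallow SUDHL6 libraries left out. Over all genes in the mean of the 3 lines, edgeR called 4996 higher and 5123 lower, against 3842 and 6876 with limma.

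Labels give replicate numbers in each group. Deviations of same-numbered DMSO and inhibitor libraries correlated at 0.425, 0.488 and 0.632 in SUDHL6. The replicate block treats same-numbered libraries of a line as paired. The main test, and so every p-value given without the block, does not. In Farage the correlations were 0.168, -0.128 and -0.189 and in SUDHL4 -0.054, 0.034 and -0.073. No replicates were duplicates: the chi-square per degree of freedom between replicates of a group was 1.87 to 54.13.

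The members and lists were chosen with earlier results of these data known. Named in full were the immunoproteasome and constitutive catalytic genes, and from each other class the 3 largest and 3 smallest mean changes and the 2 smallest p-values for a difference of response, plus the largest movers of the partner and interferon lists, of which some are not reported here. Promoter windows are RefSeq's (GRCh38.p14), and transcript lengths are those of the longest transcript of a gene that GENCODE marks as principal. Of 48 genes 42 matched a window, and PSMA7, PSMB1, PSMB6, PSMB7, PSMD4 and PSMG3 did not.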

Additional observations from a re-analysis of the deposited data

Results flagged for a closer look

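These are the responses, inhibitor minus DMSO on the log2(CPM + 1) scale, that differed between 2 lines by at least 0.5 and with a limma adjusted p under 0.05 for the difference itself. Between SUDHL6 and Farage 4 genes met both limits: PSMA7 (0.598), PSMB10 (0.58), PSMD12 (0.661) and PSMD4 (0.708); in each the response in Farage was the more negative one. PSMD12, a lid subunit, rose in SUDHL6 by 0.615 and was at -0.046 in Farage, which became 0.206 with median-of-ratios scaling.

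Between SUDHL4 and Farage 7 genes did. PSMB10 (1.066) and PSMD10 (0.543) were on the higher side in SUDHL4. PSMA8 (-1.245), PSMC2 (-0.626), PSMD5 (-1.548), PSME3 (-0.736) and PSMG3 (-0.715) were on the lower side. The PSMA8 difference rests on a gene near 0 CPM in Farage and was not called with a pseudocount of 0.25, edgeR or DESeq2.

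Between SUDHL6 and SUDHL4 12 genes did. On the higher side in SUDHL6 were PSMA7 (0.544), PSMA8 (0.876), PSMC2 (0.699), PSMD1 (0.735), PSMD2 (0.542), PSMD4 (0.612), PSMD5 (1.727), PSME3 (0.988) and PSMG3 (0.632). On the lower side were PSMD10 (-0.601), PSME1 (-0.588) and PSME4 (-0.538). PSMD2, a large scaffold of the cap, fell in SUDHL4 by -0.638 and was at -0.096 in SUDHL6. The PSMA8 difference was lost with a pseudocount of 0.25 (0.418, adjusted p = 0.534) and was -1.128 with edgeR and -1.193 with DESeq2, so its direction is not settled.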

How the results depend on the processing

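The 5 immunoproteasome genes and PSMG1 to PSMG4 were called lower in each line and in the mean without any single library (5 and 4 throughout). With each library left out in turn, genes called higher numbered 10 to 14 in SUDHL6, 8 to 10 in Farage, 6 to 8 in SUDHL4 and 12 to 14 in the mean, and genes called lower 20 to 22, 26 to 27, 27 to 30 and 28 to 30. Differences of response numbered 8 to 16 for SUDHL6 minus Farage, 12 to 17 for SUDHL4 minus Farage and 16 to 20 for SUDHL6 minus SUDHL4, and differences of DMSO level 27 to 35, 26 to 31 and 27 to 35. Called higher were 21 in SUDHL6, 17 in Farage and 16 in SUDHL4 with median-of-ratios scaling, 21, 17 and 16 with edgeR, and 21, 18 and 16 with DESeq2, and called lower in Farage were 17 with both median-of-ratios scaling and edgeR. Differences of response between SUDHL6 and SUDHL4 fell to 13 with edgeR. Beyond the construction of the scalings, the cause was not tested.

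Among changes called on the deposited scale or by the alternative, direction turned under median-of-ratios scaling, edgeR and DESeq2, in that order, for PSMA3 in SUDHL4 (0.032, 0.045, 0.033), PSMA5 in SUDHL4 (0.054, 0.066, 0.054) and the mean (0.0, 0.005, 0.001), PSMB1 in Farage (0.03, 0.016, 0.03), SUDHL4 (0.07, 0.082, 0.07) and the mean (0.172, 0.178, 0.173), and PSMB4 in SUDHL4 (0.071, 0.086, 0.074) and the mean (0.039, 0.044, 0.04). It also turned for PSMB7 in SUDHL4 (0.293, 0.313, 0.3) and the mean (0.235, 0.245, 0.239), PSMC2 in the mean (0.125, 0.134, 0.13), PSMD1 in SUDHL4 (0.091, 0.105, 0.093), PSMD4 in SUDHL6 (0.17, 0.186, 0.172), PSMD8 in SUDHL4 (0.291, 0.311, 0.298), PSMD13 in SUDHL4 (0.267, 0.285, 0.272) and the mean (0.091, 0.101, 0.096), PSMF1 in Farage (0.227, 0.215, 0.229) and the mean (0.049, 0.054, 0.049), and POMP in SUDHL4 (0.241, 0.256, 0.244). PSMF1 in SUDHL4 turned with edgeR (0.001). PSMD12 in Farage turned with all 3 (0.206, 0.195, 0.209) and was called with DESeq2. Values called in no setting of these turned too, among them PSMB5 and PSMC3 in SUDHL4, PSMD2 in Farage and PSME3 in SUDHL6 (0.141, 0.134, 0.099 and 0.046 with median-of-ratios scaling). Turned as well was the PSMA8 difference of SUDHL6 minus SUDHL4 with edgeR (-1.128) and DESeq2 (-1.193).

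With the replicate number as a block, the pairing held in SUDHL6, and 13 genes were called higher and 22 lower there, 10 and 27 in Farage, 7 and 29 in SUDHL4 and 13 and 29 in the mean, with 18, 16 and 21 differences of response. In Farage and SUDHL4 the libraries share only a number. Besides the differences given in the report, those between SUDHL6 and Farage in PSMA2, PSMA6 and PSME4 (0.29, 0.33 and -0.38; adjusted p = 0.0197, 0.0427 and 0.0103) were called with the block, the mean rise of PSMD14 was lost (adjusted p = 0.0618), and PSMD1 and PSMD2 were called in Farage.

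Without both shallow SUDHL6 libraries the rise of PSME4 in SUDHL6 was lost (adjusted p = 0.0761), as was the difference of PSMG3 between SUDHL6 and SUDHL4 (0.0614). Depth limits PSMB11 (at most 0.129 CPM), PSMA8 outside SUDHL4 (at most 0.906 CPM) and treated PSMB9 in SUDHL6 (0.344 to 1.57 CPM).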

Other observations

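Summed over the 5 immunoproteasome genes, the level was 274.6 ± 18.1 CPM with DMSO and 113.7 ± 17.7 with the inhibitor in SUDHL6 (SD, n = 3). It was 465.6 ± 23.9 and 186.2 ± 8.72 CPM in Farage and 311.2 ± 24.1 and 163.6 ± 8.03 in SUDHL4. The 3 constitutive catalytic genes summed to 228.7 ± 12.4 and 266.2 ± 9.17 CPM in SUDHL6, 184.1 ± 13.2 and 230.1 ± 15.2 in Farage, and 202.0 ± 4.39 and 220.1 ± 11.6 in SUDHL4. All 48 proteasome genes together stood at 5060 ± 130 and 5005 ± 228 CPM in SUDHL6, 5135 ± 232 and 4447 ± 226 in Farage, and 4548 ± 74.9 and 3822 ± 131 in SUDHL4.

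The PSME2/PSME3 ratio was 0.206 ± 0.0083 with DMSO and 0.224 ± 0.013 with the inhibitor in SUDHL4, and 0.499 ± 0.013 and 0.276 ± 0.0091 in Farage (SD, n = 3).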
